A study of Homo sapiens with 15 samples.

Results

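Solute carrier (SLC) genes encode membrane proteins that move amino acids, sugars, nucleotides, ions, metals and vitamins across the plasma membrane and the membranes of organelles. The family is numbered by sequence kinship, so that an SLC number usually names a class of cargo. Most SLC25 genes, for example, encode carriers of the mitochondrial inner membrane. Transporters work as uniporters, as exchangers or as cotransporters driven by an ion gradient, and some, such as the light chain SLC7A5, reach the cell surface only when paired with a partner such as SLC3A2. Plasma cells and myeloma cells secrete or assemble large amounts of antibody protein and depend on amino acid supply and on the transporters that load nucleotide sugars and ATP into the secretory pathway.

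The 182 genes described here were chosen by their name and level. A gene was a member if it was protein-coding, had a symbol beginning with SLC and a number, and had a mean normalized read count of 20 or more over all 15 libraries. The facilitative glucose transporters SLC2A1 and SLC2A3 were left out by name. Of 375 protein-coding SLC genes, 182 met the rule, 191 had a mean under 20, and 43 of those 191 had no read in any library. The level used for the choice was not tested. The members nearest the limit included SLC25A15 (mean 23.2) and SLC25A43 (24.71), and the genes just under it were SLC22A15 (19.37), SLC37A2 (18.94) and SLC8A1 (18.89). All 182 members also passed the low-value filter of the test. The members carried 46 different SLC numbers and were grouped by number into classes named after a usual cargo. The cargo of a single gene can differ from that of its class. The classes held 36 mitochondrial SLC25 genes, 28 amino acid and peptide transporters, 25 for zinc and other metals, and 24 for inorganic ions and pH. A further 24 were for nucleosides and nucleotide sugars, 20 for sugars, monocarboxylates and carboxylates, 15 for vitamins, lipids and cofactors, and 10 of other numbers. The name rule also caught SLC7A6OS, SLC4A1AP and SLC2A4RG, which are named after a neighbouring or partner gene and are not transporters. These are counted in the class of their number.

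The cells were MM.1S, a human multiple myeloma line, given the vehicle DMSO, the inhibitor A-485 or GNE-781 alone, the pair together, or the degrader dCBP-1, each for 6 h. Each compound was at 100 nM, and each of the 5 groups had 3 libraries. CBP and p300 are paired histone acetyltransferases and transcriptional coactivators. A-485 blocks their catalytic site, GNE-781 occupies their bromodomain, and dCBP-1 links a binder of the bromodomain, akin to GNE-781, to a cereblon ligand, which leads to degradation of both proteins. In 2 combination libraries the label's treatment field gives other numbers for the second inhibitor (GNE-782 and GNE-783), and they are used here as the combination their titles name. The labels' molecule field reads genomic DNA, while the protocol is a 3′ RNA kit, and the values are treated as RNA. RNA was read from the 3′ end of transcripts, so a value does not grow with transcript length, and it is given as a normalized read count, that is reads divided by 1 factor per library. The labels do not say that replicates came from separate cultures, so p-values measure the spread between these libraries, which may be technical.

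Libraries held 13.1 to 18.29 M reads, and the members took 0.701% to 0.805% of the reads in each. A count of 0 allows up to 3 reads, or a normalized read count of 2.37 to 3.64 depending on the library. The first and the second DMSO replicate differed from the 13 remaining libraries: mitochondrial genes took 23.1% and 19.7% of their reads against 14.3% to 17.0% elsewhere, and 16557 and 17585 genes had a read against 19128 to 21140. Among the 45 members that rose with dCBP-1, DMSO replicate 3 was the highest DMSO library for 29 and the lowest for 6. Among the 45 that fell these counts were 21 and 17, and among the 92 not called they were 55 and 9. Results are therefore also given without DMSO replicates 1 and 2, a fit in which the remaining DMSO library is assumed to vary like the other groups. Their part in the results was not tested otherwise. All 9 plasma cell markers examined, such as SDC1, TNFRSF17 and JCHAIN, were at 170 or more in every library. Markers of B cells, T cells, monocytes, epithelium and fibroblasts were at or near 0, with CD3D and CSF1R at 0 in all 15 libraries, while the erythroid gene HBB ranged from 26.7 to 150.

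The degrader changed the most members. With dCBP-1 45 members rose and 45 fell against DMSO (limma on log2 of the normalized read count plus 1, Benjamini-Hochberg adjusted p under 0.05 over 16104 genes). Of these, 20 rose and 20 fell by 2-fold or more. The share called was 49.5%, against 37.8% of all genes tested and 45.8% of genes with a mean of 20 or more, so that SLC genes were called about as often as genes of like level. The members' median log2 fold change was -0.02 and that of all genes tested was 0.07. Without DMSO replicates 1 and 2, 20 members rose and 37 fell, and 54 of the 90 calls were kept, 20 rises and 34 falls. In that fit 31.3% of members were called, against 24.0% of all genes tested, of which 1255 rose and 2547 fell, and 29.4% of genes with a mean of 20 or more. The median log2 fold change was -0.18 over the members and -0.12 over all genes tested, so that falls outnumbered rises in both. The median log2 fold change of the 45 risen members was 0.89 with all libraries and 0.66 without those replicates. For the 45 fallen members it was -0.92 and -0.90, and for the 92 not called -0.02 and -0.18. In bulk RNA, fewer cells of a kind and less RNA per cell cannot be told apart. The values held no rows of added reference RNA (ERCC), so rises and falls are relative to the other genes of a library. A shift shared by all genes would not show.

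**Figure D1:**
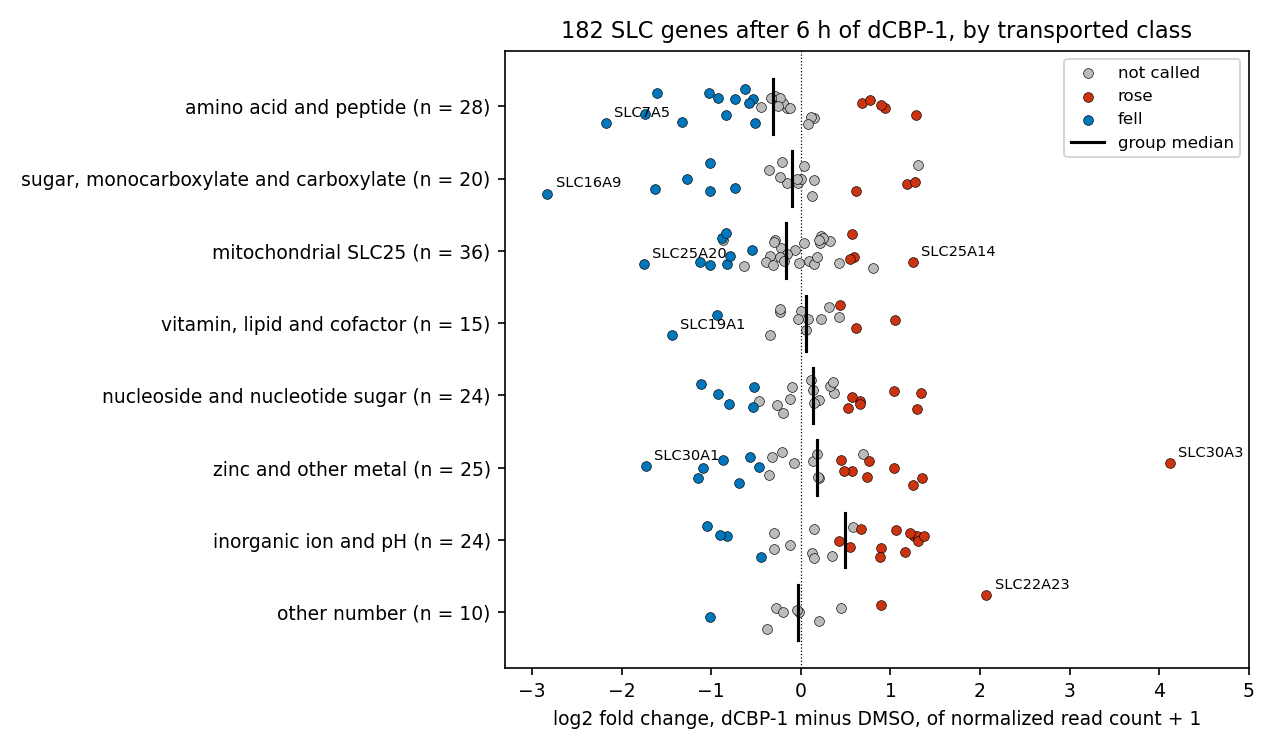
Log2 fold change of each of the 182 SLC genes after dCBP-1 against DMSO (x axis, normalized read count plus 1; 3 libraries a group), in rows by cargo class, with points red where the gene rose, blue where it fell and grey where it was not called (limma, adjusted p under 0.05); black bars are class medians. The amino acid class has the lowest median, -0.31, and the ion and pH class the highest, 0.49.

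Among the 28 amino acid and peptide transporters 12 fell and 5 rose with dCBP-1, with a median log2 fold change of -0.31; without DMSO replicates 1 and 2, 11 fell and 3 rose. The share called with all libraries was 60.7%, against 37.8% of all genes tested and 45.8% of those with a mean of 20 or more. Differences between classes were not tested. The largest fall in the class was that of SLC7A5, the light chain that exchanges large neutral amino acids such as leucine across the plasma membrane. SLC7A5 was at 1947, 2121 and 1894 in the DMSO libraries and at 469, 533 and 337 in the dCBP-1 libraries. The groups did not overlap, and the log2 fold change was -2.18 ± 0.17 (SE; adjusted p = 7.4e-12). The promoter of SLC7A5 is shown because its gene had the largest fall of the class and the window holds an E-box, a motif bound by MYC and related factors; the share of promoters with this motif is given at the end. The window spans 250 bases before to 50 after the annotated start in RefSeq (GRCh38.p14, chr16:87869458-87869757, minus strand), with the E-box CACGTG in capitals.
SLC7A5 promoter: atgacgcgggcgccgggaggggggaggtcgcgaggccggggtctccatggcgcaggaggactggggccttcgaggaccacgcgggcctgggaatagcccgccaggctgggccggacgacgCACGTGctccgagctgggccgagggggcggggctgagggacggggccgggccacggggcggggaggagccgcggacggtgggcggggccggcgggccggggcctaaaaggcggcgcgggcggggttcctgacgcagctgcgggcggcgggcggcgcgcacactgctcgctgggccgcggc

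SLC3A2 is the heavy chain that carries SLC7A5 and SLC7A6 to the surface. Its DMSO libraries were at 4689, 4531 and 4873 and its dCBP-1 libraries at 2918, 2939 and 2644 (log2 fold change -0.73 ± 0.13, adjusted p = 5.5e-05). SLC7A6, a light chain that exchanges cationic for neutral amino acids, went from 822, 957 and 904 to 300, 246 and 255 (-1.74 ± 0.14, adjusted p = 3.6e-11). The difference between the heavy and light chains in their fold changes was not tested. SLC7A11, the cystine and glutamate exchanger that uses the same heavy chain, was at 124, 153 and 171 in DMSO and at 158, 168 and 145 with dCBP-1 (0.08 ± 0.22, adjusted p = 0.8), and its groups overlapped.

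SLC43A2, a facilitative carrier of neutral amino acids, went from 383, 325 and 392 in DMSO to 144, 118 and 99.6 with dCBP-1 (log2 fold change -1.61 ± 0.18). SLC1A4, a sodium-dependent exchanger of alanine, serine and cysteine, had the highest mean count of the class. It was at 7470, 7446 and 7364 in DMSO and at 3169, 2740 and 2996 with dCBP-1 (-1.33 ± 0.12, adjusted p = 3.7e-10). Its close relative SLC1A5, the main glutamine exchanger of many tumour lines, fell by 0.54 on the log2 scale, from 2799, 3123 and 3236 to 1844, 1993 and 2524. The sodium-coupled neutral amino acid transporters of the plasma membrane also fell: SLC38A5 by 0.84, SLC38A2 by 0.62 and SLC38A1 by 0.58. SLC6A6, the taurine transporter, fell by 0.92, and the endolysosomal histidine and peptide transporter SLC15A4 by 1.03. These falls were called in every alternative setting and with any library left out. That of SLC15A3, the relative of SLC15A4, was -0.51 and was lost without DMSO replicate 2, without dCBP-1 replicate 2, and without DMSO replicates 1 and 2 together.

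The 5 amino acid transporters that rose were SLC6A8, SLC38A6, SLC43A1, SLC38A7 and SLC36A1. SLC36A1, a proton-coupled carrier of small amino acids found on lysosomes, was at 289, 249 and 251 in DMSO and at 498, 401 and 373 with dCBP-1 (log2 fold change 0.68 ± 0.16, adjusted p = 0.0011). SLC38A7, a lysosomal exporter of glutamine, went from 149, 199 and 166 to 327, 234 and 325 (0.77 ± 0.19). Both calls held in every alternative. The rise of SLC43A1 (0.90) was lost without DMSO replicates 1 and 2, as was that of SLC38A6 (0.94), which was also lost without DMSO replicate 1, DMSO replicate 2 or dCBP-1 replicate 1. SLC6A8, the creatine transporter, was at only 23.1, 33.7 and 13.4 in DMSO and at 62.4, 42.0 and 64.0 with dCBP-1 (1.29 ± 0.41); its call was lost with no filter and without DMSO replicate 3, dCBP-1 replicate 1 or dCBP-1 replicate 3, and reads of SLC6A8 and SLC7A5 may be shared with pseudogene copies.

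**Figure D2:**
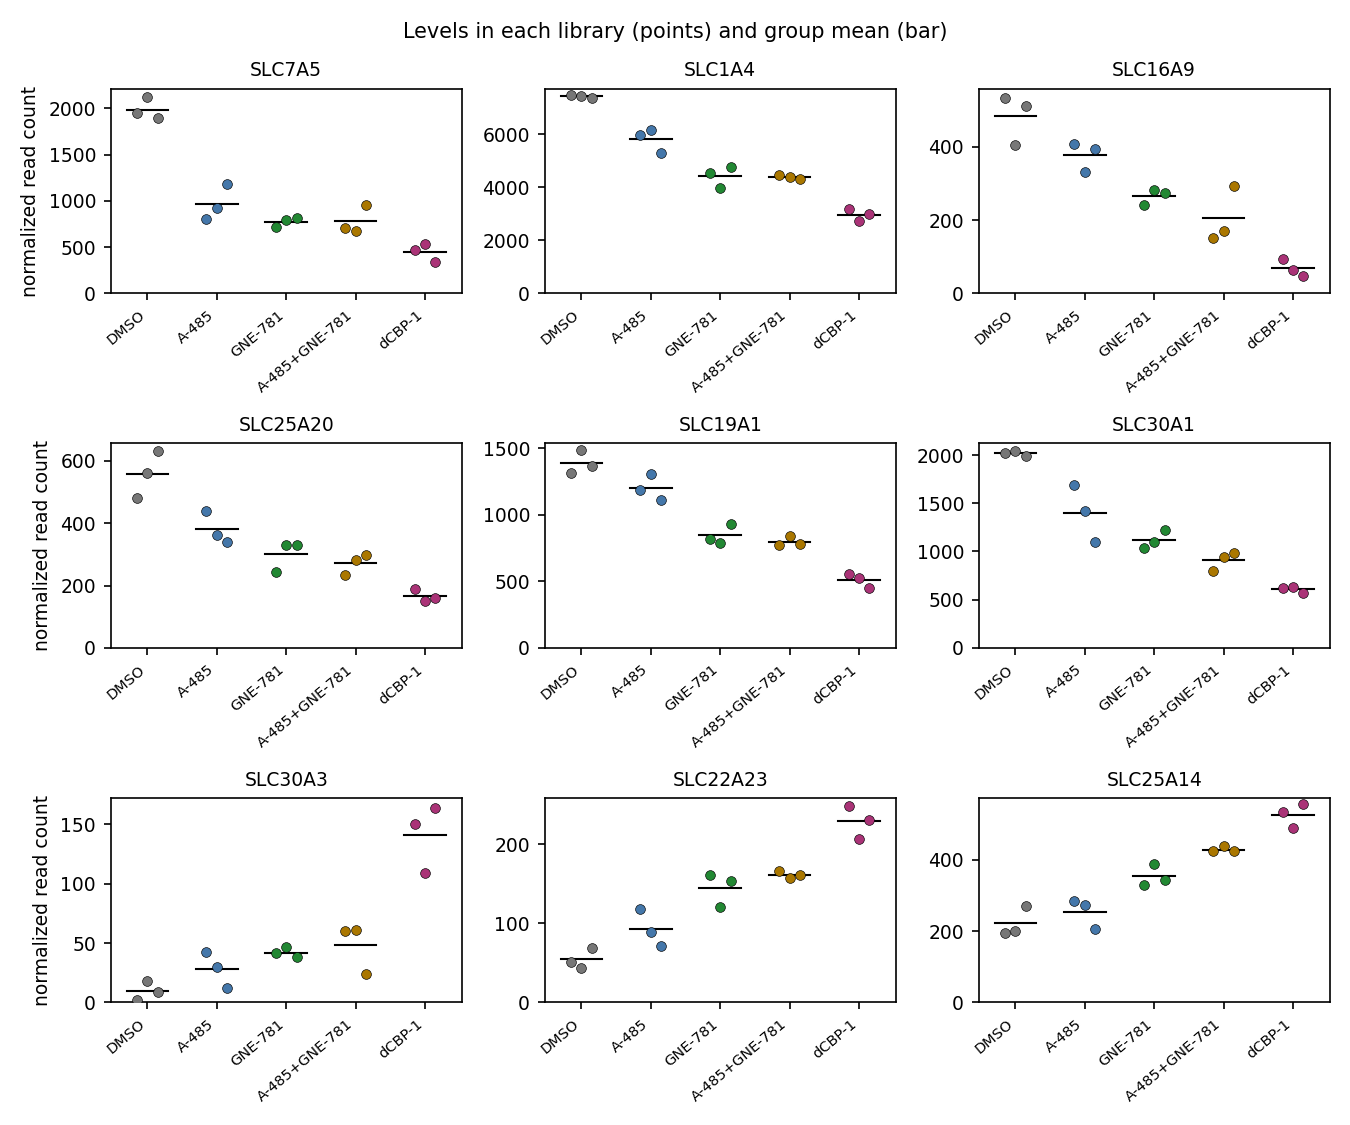
Normalized read count (y axis, from 0) of 9 SLC genes in each library (points) by treatment (x axis, 3 libraries a group), with bars at group means. For SLC7A5, SLC1A4, SLC16A9, SLC25A20, SLC19A1 and SLC30A1 the 3 dCBP-1 libraries lie under all 12 others, and for SLC30A3, SLC22A23 and SLC25A14 above them.

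Zinc and other metal carriers moved in both directions, with 9 of 25 members higher and 7 lower after dCBP-1 (median log2 fold change 0.18; 5 rose and 5 fell without DMSO replicates 1 and 2). With all libraries 64.0% of the class was called, against 37.8% of all genes tested and 45.8% of those with a mean of 20 or more. SLC30 proteins carry zinc out of the cytosol and SLC39 proteins carry it in. Of 7 SLC30 genes 3 rose and 1 fell (57.1% called), and of 11 SLC39 genes 2 rose and 5 fell (63.6%). Without DMSO replicates 1 and 2 the log2 fold changes of the risen genes were 3.88 (SLC30A3), 0.66 (SLC30A9) and 0.34 (SLC30A6). They were 0.71 for SLC39A13 and 0.09 for SLC39A11. Those of the fallen genes ranged from -1.71 (SLC30A1) to -0.45 (SLC39A8). The rises of SLC30A6 and SLC39A11 and the falls of SLC39A14 and SLC39A8 were not called in that fit. The one SLC30 gene that fell was SLC30A1, the zinc exporter of the plasma membrane and a textbook target of the zinc-sensing factor MTF1. SLC30A1 was at 2026, 2046 and 1988 in DMSO and at 618, 632 and 570 with dCBP-1 (log2 fold change -1.73 ± 0.14, adjusted p = 3.4e-11). SLC30A3, which loads zinc into vesicles, had the largest rise of all 182 members: it was at 1.92, 17.9 and 8.5 in DMSO and at 150, 109 and 164 with dCBP-1 (4.12 ± 0.49, adjusted p = 7.8e-08). One DMSO value lay under the floor of 3 reads, so the size of the fold depended on the pseudocount, from 4.31 with 0.25 to 3.48 with 5.

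The promoters of these oppositely moving zinc genes are shown because both hold 2 matches to the core of the metal response element (TGCGCNC or TGCACNC, either strand, in capitals), in RefSeq windows of GRCh38.p14 at chr1:211579112-211579411 for SLC30A1 and chr2:27275297-27275596 for SLC30A3, both on the minus strand.
SLC30A1 promoter: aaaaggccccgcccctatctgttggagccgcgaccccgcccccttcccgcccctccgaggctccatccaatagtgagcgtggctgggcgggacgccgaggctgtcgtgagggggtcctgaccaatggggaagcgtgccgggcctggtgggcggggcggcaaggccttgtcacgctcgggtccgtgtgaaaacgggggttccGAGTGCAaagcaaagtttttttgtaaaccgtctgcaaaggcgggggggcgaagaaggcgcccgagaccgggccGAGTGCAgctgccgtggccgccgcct
SLC30A3 promoter: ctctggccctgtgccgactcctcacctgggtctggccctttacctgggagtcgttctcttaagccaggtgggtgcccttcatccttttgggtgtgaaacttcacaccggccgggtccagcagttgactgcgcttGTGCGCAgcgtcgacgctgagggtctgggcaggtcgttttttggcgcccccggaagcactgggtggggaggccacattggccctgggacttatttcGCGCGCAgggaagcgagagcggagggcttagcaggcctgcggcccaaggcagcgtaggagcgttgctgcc

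Other metal-responsive genes were taken from the list of regulators and sensors described further on. Metallothioneins are small zinc-binding proteins, and 3 of the 5 listed passed the test and rose. MT1E had no read in any library and MT1G was at 2.42 or less, so neither was tested. MT1X went from 79.8, 101 and 86.2 to 203, 198 and 152 (log2 fold change 1.04 ± 0.21), MT2A from 173, 141 and 121 to 230, 197 and 222 (0.58 ± 0.19), and MT1F from 0, 2.11 and 1.21 to 36.3, 25.8 and 30.8 (adjusted p = 3.5e-06). MT1F's DMSO values were all under the floor, so no fold is given. MT1F passed the low-value filter only through treated libraries, so its call supports nothing further. MTF1 itself was at 855, 848 and 1123 in DMSO and at 961, 866 and 734 with dCBP-1 (-0.14 ± 0.14, adjusted p = 0.48).

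Among the zinc importers SLC39A10 fell the most, from 467, 510 and 640 to 240, 234 and 244 (log2 fold change -1.15 ± 0.16), followed by SLC39A4 (-1.09 ± 0.17). SLC39A14 (-0.69) and SLC39A8 (-0.57) also fell, but neither was called without DMSO replicates 1 and 2. SLC39A7, which releases zinc from the endoplasmic reticulum, was at 1955, 2889 and 3062 in DMSO and at 2073, 1880 and 1659 with dCBP-1 (-0.47 ± 0.16); the groups overlapped, and the call was lost with quantile normalization and without DMSO replicate 2, DMSO replicate 3 or dCBP-1 replicate 3. SLC39A6 did not pass the test (-0.21, adjusted p = 0.2). SLC30A9 rose from 480, 434 and 505 to 753, 744 and 908 (0.76 ± 0.16) in every alternative.

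The other metal carriers were mixed as well. The magnesium transporter SLC41A1 was at 256, 445 and 728 in DMSO and at 1158, 1086 and 1093 with dCBP-1 (log2 fold change 1.35 ± 0.20); without DMSO replicates 1 and 2 its log2 fold change was 0.61 and it was still called. Its relative SLC41A2 fell from 197, 196 and 199 to 97.8, 110 and 115 (-0.87 ± 0.19). SLC40A1, the iron exporter ferroportin, rose by a log2 fold change of 1.04, or 1.64 without DMSO replicates 1 and 2, but was not called without DMSO replicate 3. The copper transporters SLC31A1 (0.57) and SLC31A2 (1.25) rose, and neither was called without DMSO replicates 1 and 2. SLC31A1 was also lost without dCBP-1 replicate 3.

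Of 24 inorganic ion and pH transporters 12 rose and 4 fell with dCBP-1, with a median log2 fold change of 0.49. This was 66.7% of the class, against 37.8% of all genes tested and 45.8% of those with a mean of 20 or more. Without DMSO replicates 1 and 2, 5 rose and 3 fell. The sulfate transporter SLC26A2, which supplies sulfate for proteoglycans, went from 247, 300 and 405 to a mean of 746 with dCBP-1, all 3 libraries above all 3 of DMSO (1.26 ± 0.15), and the anion exchanger SLC26A6 from 173, 128 and 194 to 329, 339 and 352 (1.06 ± 0.17). Both calls held in every alternative. All 3 SLC26 members rose, though SLC26A11 (0.67) was lost with no filter, from only the groups compared, and without DMSO replicate 2, DMSO replicate 3, dCBP-1 replicate 2, dCBP-1 replicate 3, or DMSO replicates 1 and 2 together.

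Of 6 members numbered SLC4, the bicarbonate transporters, 83.3% were called with dCBP-1. The share was 37.8% of all genes tested and 45.8% of those with a mean of 20 or more. SLC4A4 was not called (log2 fold change -0.12, and -1.04 without DMSO replicates 1 and 2). The other 5 rose. One of them is SLC4A1AP, an adaptor-named nuclear protein and not a transporter, which was at 561, 474 and 763 in DMSO and at 1193, 1306 and 1935 with dCBP-1 (log2 fold change 1.30 ± 0.17). Among the transporters proper SLC4A7 (0.55), SLC4A2 (0.88) and SLC4A8 (1.31) were not called without DMSO replicates 1 and 2. Single libraries also ended the calls of SLC4A2 (DMSO replicate 1 or dCBP-1 replicate 3) and SLC4A8 (DMSO replicate 2 or dCBP-1 replicate 1), and SLC4A8 was also lost with no filter and from only the groups compared. SLC4A11 (1.16) was low, at 19.2, 32.7 and 10.9 in DMSO, and was lost with no filter, from only the groups compared, and without DMSO replicate 1, DMSO replicate 3, dCBP-1 replicate 2 or dCBP-1 replicate 3. The mitochondrial sodium and calcium exchanger SLC8B1 rose by 1.22, and by 0.61 with no call without DMSO replicates 1 and 2 (adjusted p = 0.16).

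The ion transporters that fell included the phosphate transporter SLC20A2 (log2 fold change -1.05), the sodium and proton antiporter SLC9B2 (-0.90) and the potassium chloride cotransporter SLC12A7 (-0.83). SLC9B2 went from 461, 584 and 564 to 277, 317 and 266, and SLC12A7 from 174, 197 and 223 to 89.4, 110 and 138. SLC20A2 was not called without DMSO replicates 1 and 2. SLC12A2, the sodium, potassium and chloride cotransporter, which brings chloride in where SLC12A7 lets it out, rose by 0.43. Its call was lost without DMSO replicate 1, DMSO replicate 2 or dCBP-1 replicate 3, and its log2 fold change was 0.20 without DMSO replicates 1 and 2.

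Of 36 mitochondrial carriers 4 were higher and 8 lower with dCBP-1 (33.3% called; median log2 fold change -0.17; 1 rose and 7 fell without DMSO replicates 1 and 2). Of all genes tested 37.8% were called with all libraries, and 45.8% of those with a mean of 20 or more. SLC25A20, which brings acylcarnitines into mitochondria for fatty acid oxidation, fell from 480, 562 and 632 to 188, 149 and 160 (log2 fold change -1.75 ± 0.17, adjusted p = 2.3e-09). The dicarboxylate carrier SLC25A10 went from 1174, 936 and 654 to 412, 431 and 384 (-1.13 ± 0.17); without DMSO replicates 1 and 2 its log2 fold change was -0.68. SLC25A45 (-1.01), the ATP-magnesium and phosphate carrier SLC25A24 (-0.84) and the folate carrier SLC25A32 (-0.79) fell in every alternative.

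SLC25A1, the citrate carrier that feeds fatty acid synthesis, lost its call without DMSO replicates 1 and 2. It was at 2096, 2368 and 1174 in DMSO and at 1157, 1010 and 802 with dCBP-1. The log2 fold change was -0.88 (adjusted p = 0.00029) with all DMSO libraries and -0.26 (adjusted p = 0.37) against DMSO replicate 3 alone. The most abundant mitochondrial carriers did not pass the test: the phosphate carrier SLC25A3 (0.21, adjusted p = 0.22) and the ADP/ATP carriers SLC25A5 (-0.30, adjusted p = 0.19) and SLC25A6 (0.20, adjusted p = 0.22). After quantile normalization SLC25A3 (0.42, adjusted p = 0.00087) and SLC25A6 (0.43, adjusted p = 0.00037) were called, as was SLC25A6 without DMSO replicate 3 (0.33, adjusted p = 0.03). SLC25A5 and SLC25A6 have near-identical copies in the genome, and how shared reads were assigned is not given in the sources used here.

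The uncoupler-like carrier SLC25A14 was the SLC25 gene that rose most, from 195, 201 and 272 to 536, 489 and 556 (log2 fold change 1.25 ± 0.16), and it was called in every alternative. The rises of the 2-oxoglutarate carrier SLC25A11 (0.59), the glutathione carrier SLC25A40 (0.57) and the S-adenosylmethionine carrier SLC25A26 (0.55) were lost without DMSO replicates 1 and 2. SLC25A40 was also lost without DMSO replicate 1, dCBP-1 replicate 1 or dCBP-1 replicate 2, and SLC25A26 without DMSO replicate 2, dCBP-1 replicate 1 or dCBP-1 replicate 3.

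Transporters of sugars, monocarboxylates and carboxylates held the largest fall of all members. With dCBP-1 45.0% of the class was called, against 37.8% of all genes tested and 45.8% of those with a mean of 20 or more. Of 20 genes 6 fell and 3 rose (median log2 fold change -0.10; 6 fell and 2 rose without DMSO replicates 1 and 2). SLC16A9, a carnitine and creatine transporter of the monocarboxylate family, was at 533, 404 and 511 in DMSO and at 95.0, 63.8 and 48.6 with dCBP-1 (-2.83 ± 0.23, adjusted p = 2.2e-11). SLC16A6 went from 57.7, 54.8 and 69.2 to 17.7, 18.6 and 20.2 (-1.63 ± 0.36) and SLC16A14 from 174, 136 and 181 to 57.7, 75.9 and 67.6 (-1.27 ± 0.23). The lactate carriers of the same family did not pass the test: SLC16A1 was at 1514, 1595 and 1662 in DMSO and at 1487, 1536 and 1892 with dCBP-1 (0.04, adjusted p = 0.87), and the log2 fold change of SLC16A3 was -0.03 (adjusted p = 0.92).

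SLC5A6, the sodium-coupled transporter of biotin and pantothenate, fell from 1387, 1713 and 1334 to 1002, 806 and 855 (log2 fold change -0.73 ± 0.13) in every alternative. SLC2A6 (-1.02) and SLC37A1 (-1.01), a glucose-6-phosphate antiporter relative, fell, and neither was called without DMSO replicates 1 and 2. SLC2A6 was also lost with no filter, from only the groups compared, and without DMSO replicate 1 or dCBP-1 replicate 2, and SLC37A1 without DMSO replicate 2 or dCBP-1 replicate 1. SLC2A8, an intracellular sugar transporter, was at 305, 368 and 570 in DMSO and at 945, 904 and 900 with dCBP-1 (1.19 ± 0.17); without DMSO replicates 1 and 2 its log2 fold change was 0.68 and it was called. SLC37A3 rose from 76.9, 121 and 107 to 244, 258 and 226 (1.27 ± 0.20).

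Nucleoside and nucleotide sugar transporters split into 7 higher and 5 lower of 24 (median log2 fold change 0.14). With dCBP-1 12 of 24 were called, against 37.8% of all genes tested and 45.8% of those with a mean of 20 or more. Without DMSO replicates 1 and 2, 2 rose and 3 fell. SLC29A1, the equilibrative nucleoside transporter of the plasma membrane, fell from 2572, 2394 and 2237 to 1522, 1423 and 1205 (-0.80 ± 0.13), and SLC35F2 from 381, 390 and 302 to 187, 171 and 205 (-0.92 ± 0.17). SLC35E3 rose from 248, 195 and 234 to 428, 450 and 516 (1.04 ± 0.17), and SLC35E4 from 49.0, 40.1 and 32.8 to 103, 88.0 and 120 (1.34 ± 0.28). These 4 calls held in every alternative.

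Calls of transporters that load the Golgi and the endoplasmic reticulum were lost without some of the libraries. SLC35A2, the UDP-galactose transporter, was at 91.3, 101 and 188 in DMSO and at 240, 346 and 317 with dCBP-1 (log2 fold change 1.30, and 0.66 with adjusted p = 0.21 without DMSO replicates 1 and 2). SLC35B2, which carries the sulfate donor PAPS, fell by 1.12, and its log2 fold change was -0.98 with adjusted p = 0.053 without those replicates. SLC35B1, the ATP and ADP exchanger of the endoplasmic reticulum, rose by 0.57, and its log2 fold change was 0.47 with adjusted p = 0.071 without them. The GDP-fucose transporter SLC35C1 fell by 0.52 with overlapping groups, and was lost from only the groups compared and without DMSO replicate 2, DMSO replicate 3, dCBP-1 replicate 1 or dCBP-1 replicate 2.

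Among 15 vitamin, lipid and cofactor transporters 3 rose and 2 fell (median log2 fold change 0.06; 1 rose and 2 fell without DMSO replicates 1 and 2). With all libraries 33.3% of the class was called, against 37.8% of all genes tested and 45.8% of those with a mean of 20 or more. SLC19A1, the reduced folate carrier that also takes up antifolate drugs, fell from 1316, 1484 and 1367 to 557, 528 and 448 (log2 fold change -1.44 ± 0.13, adjusted p = 3.6e-10). SLC44A1, a choline transporter, had the highest mean count of all members and fell from 6608, 6850 and 8322 to 4015, 4344 and 3028 (-0.94 ± 0.16). SLC46A3, a lysosomal transporter, rose from 50, 86.5 and 36.4 to 122, 95.3 and 123 (1.05 ± 0.27), with a log2 fold change of 1.60 without DMSO replicates 1 and 2. The acetyl-CoA transporter of the endoplasmic reticulum, SLC33A1, rose by 0.44, and was not called without DMSO replicates 1 and 2 (0.34, adjusted p = 0.19). None of the 4 SLC27 fatty acid transporters was called, with log2 fold changes of -0.23 to 0.43.

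In the class of other numbers, 2 of 10 members rose and 1 fell with dCBP-1. Thus 3 of 10 were called, against 37.8% of all genes tested and 45.8% of those with a mean of 20 or more. The median log2 fold change of the class was -0.03, and -0.2 without DMSO replicates 1 and 2. SLC22A23, an orphan of the organic ion transporter family, had the second largest rise of all members, from 50.9, 43.2 and 69.2 to 248, 207 and 231 (log2 fold change 2.07 ± 0.22, adjusted p = 1.3e-08). The lysosomal exporter of cationic amino acids SLC66A1 rose by 0.89, with 0.81 and adjusted p = 0.055 without DMSO replicates 1 and 2. The urea transporter SLC14A1 fell by 1.01 but was lost with no filter, from only the groups compared, without DMSO replicate 1, DMSO replicate 3, dCBP-1 replicate 1 or dCBP-1 replicate 3, and without DMSO replicates 1 and 2 together. SLC18B1, a polyamine transporter, did not pass the test (0.45, adjusted p = 0.11).

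The inhibitors changed fewer members than the degrader, and no member was called up in one comparison with DMSO and down in another. These 4 comparisons share the DMSO libraries. In all, 94 members were called in at least 1 of them and 88 in none. The like counts over all genes were not computed, so nothing particular to SLC genes is read from these or from the lack of opposite calls. A-485 raised 1 member and lowered 5 (3.30% called, against 2.14% of all genes tested and 2.7% of genes with a mean of 20 or more); the split was 6 and 4 with TMM scaling, 5 and 5 with median-ratio scaling and 5 and 3 after quantile normalization. Those that fell were SLC37A1 (log2 fold change -1.26), SLC7A5 (-1.05), SLC25A1 (-0.88), SLC25A10 (-0.66) and SLC30A1 (-0.55), and SLC41A1 rose (0.77) with overlapping groups. None of the 6 was called by limma without DMSO replicates 1 and 2, where 0.082% of all genes tested and 0.0676% of those with a mean of 20 or more were called and 26 members had an unadjusted p under 0.05; with all libraries DESeq2 called 18 and edgeR 11. The fall of SLC7A5 with A-485 was lost only in that setting, and its log2 fold change there was -0.99. SLC25A1 was lost with quantile normalization (adjusted p = 0.051) and without DMSO replicate 2. SLC37A1 was lost with no filter and without that library or A-485 replicate 1 or 3, and SLC30A1 with no filter, from only the groups compared, and without DMSO replicate 1 or 2 or A-485 replicate 2 or 3. SLC25A10 and SLC41A1 were lost without any 1 library of these groups other than DMSO replicate 3. SLC25A10 was also lost with each of the 3 other scalings, with no filter and with edgeR, and SLC41A1 with a pseudocount of 0.25 and with no filter.

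GNE-781 raised 19 members and lowered 24 (23.6%, against 16.6% of all genes tested and 20.8% of those with a mean of 20 or more). The combination raised 23 and lowered 26 (26.9%, against 21.0% and 26.3%). Without DMSO replicates 1 and 2, 3 members rose and 11 fell with GNE-781 (7.69%, against 5.61% of all genes tested and 7.01% of those with a mean of 20 or more). With the combination 6 rose and 11 fell (9.34%, against 6.82% and 8.66%). Among all genes tested these fits gave 161 rises and 728 falls with GNE-781 and 291 and 790 with the combination. The members' median log2 fold change was -0.14 in both, and that of all genes tested was -0.11 and -0.09. The members called in every alternative with GNE-781 were SLC7A5, SLC7A6, SLC43A2, SLC1A4, SLC38A5, SLC25A20, SLC25A45, SLC30A1 and SLC19A1, which fell, and SLC30A3 and SLC22A23, which rose. With the combination there were 15 such members, among them SLC16A9 and SLC16A14 (lower) and SLC26A2, SLC26A6 and SLC35E3 (higher).

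Levels of SLC7A5 were already well under DMSO with each inhibitor alone. They were 806, 918 and 1178 with A-485, 713, 796 and 817 with GNE-781, and 703, 678 and 961 with the combination, and none of these overlapped the DMSO or the dCBP-1 libraries. SLC1A4 was at 5982, 6149 and 5282 with A-485, at 4548, 3972 and 4780 with GNE-781, and at 4478, 4378 and 4306 with the combination. SLC30A3 was at 42.1, 29.4 and 11.9, at 41.4, 46.4 and 37.8, and at 60.5, 61.1 and 24.0 in the same order, and its A-485 libraries overlapped DMSO (log2 fold change 1.67, adjusted p = 0.069).

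**Figure D3:**
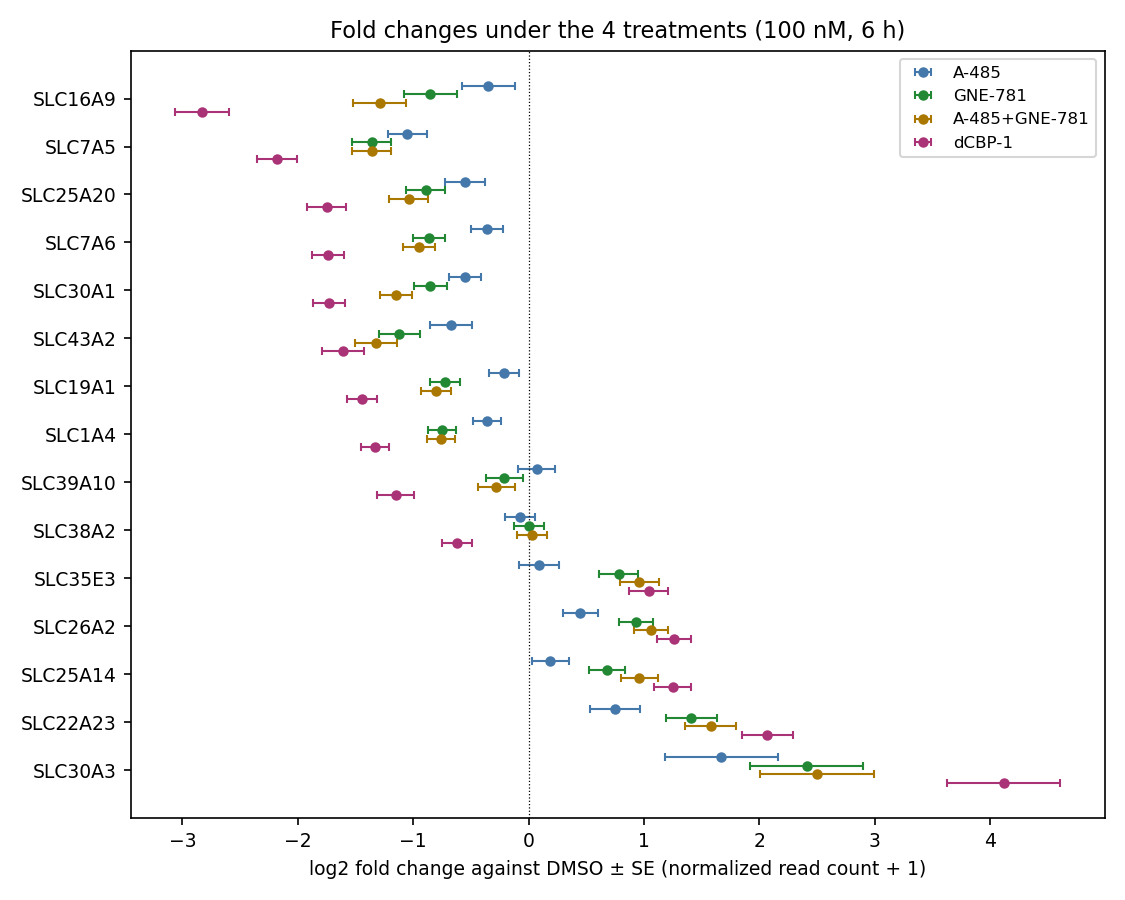
Log2 fold change against DMSO (x axis, points; bars are the SE of the fit across 15 libraries) of 15 SLC genes (y axis) with A-485, GNE-781, the combination and dCBP-1, at 100 nM for 6 h. SLC38A2 lies between -0.07 and 0.03 with the inhibitors and at -0.62 with dCBP-1, and SLC39A10 between -0.28 and 0.07 and at -1.15; all treatments share the DMSO libraries.

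The bromodomain inhibitor and the acetyltransferase inhibitor differed by limma in 1 member, or 0.549%, against 1.0% of all genes tested and 1.34% of those with a mean of 20 or more. It was SLC35E3, which was at 410, 372 and 381 with GNE-781 and at 268, 284 and 181 with A-485 (log2 fold change 0.69 ± 0.17, adjusted p = 0.04). The split of 1 higher and 0 lower was 2 and 6 with TMM scaling, 1 and 6 with median-ratio scaling and 3 and 5 after quantile normalization, and the call was lost with no filter, without A-485 replicate 1 or 3 and without any 1 GNE-781 library. For SLC7A5 the 95% interval of the difference, GNE-781 minus A-485, was -0.64 to 0.03, for SLC7A6 -0.79 to -0.21 (adjusted p = 0.09) and for SLC38A2 -0.18 to 0.34, each unadjusted, so that differences of these sizes were not resolved by the adjusted test.

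Against the combination of both inhibitors, dCBP-1 lowered 15 members and raised 1. This was 8.79% of members, against 6.17% of all genes tested and 8.17% of those with a mean of 20 or more. The split was 4 higher and 18 lower with TMM scaling and with median-ratio scaling, and 5 and 17 after quantile normalization. Of the 15 lower members 14 had also fallen against DMSO; the exception was SLC25A13, a mitochondrial aspartate and glutamate carrier, whose call against the combination was lost from only the groups compared and without combination replicate 2 or 3 or any dCBP-1 library. No DMSO library enters these fold changes, while their SE and adjusted p come from the fit over all 15 libraries, DMSO among them. Among the called members SLC16A9 had the largest fall, at 150, 170 and 294 with the combination and 95.0, 63.8 and 48.6 with dCBP-1 (log2 fold change -1.54 ± 0.23, adjusted p = 1.2e-05), followed among the called falls by SLC39A10 (-0.87 ± 0.16), SLC12A7 (-0.82 ± 0.19), SLC7A5 (-0.81 ± 0.17) and SLC7A6 (-0.79 ± 0.14).

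SLC38A2 and SLC39A10 were called with the degrader and with no inhibitor, and both were lower with dCBP-1 than with the combination. They were not the only such members. SLC35F2, SLC12A7, SLC15A4, SLC44A1 and SLC9B2 also fell with dCBP-1, had no call with an inhibitor, and were lower with dCBP-1 than with the combination. For SLC44A1 and SLC9B2 the difference from the combination did not hold in every alternative. SLC38A2, which takes up alanine and glutamine and is known for its induction in amino acid shortage, was at 3844, 4160 and 4378 with the combination and at 2713, 2438 and 2695 with dCBP-1 (log2 fold change -0.66 ± 0.13, adjusted p = 0.00057). Against DMSO its log2 fold change was -0.07 with A-485, 0.00 with GNE-781 and 0.03 with the combination, with adjusted p of 0.84, 0.98 and 0.89. SLC39A10 was at 391, 432 and 501 with the combination against 240, 234 and 244 with dCBP-1, and its log2 fold change against DMSO was 0.07 with A-485, -0.21 with GNE-781 and -0.28 with the combination (adjusted p of 0.88, 0.37 and 0.2). With DMSO replicates 1 and 2 left out these were -0.19, -0.47 and -0.54 (adjusted p of 0.73, 0.19 and 0.11). Both differences from the combination held in every alternative, as did those of SLC7A5, SLC7A6, SLC1A4, SLC16A9, SLC19A1 and SLC35F2.

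The only member higher with dCBP-1 than with the combination was SLC30A3 (log2 fold change 1.61 ± 0.49, adjusted p = 0.043). It was not called with a pseudocount of 0.25, without the filter, without combination replicate 2 or 3, or without any 1 dCBP-1 library. SLC12A7 was lost without dCBP-1 replicate 1, SLC15A4 without that library or combination replicate 2, and SLC30A1 and SLC25A20 without combination replicate 3. For SLC22A23 the 95% interval of dCBP-1 minus the combination was 0.04 to 0.95 (adjusted p = 0.25).

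dCBP-1 and GNE-781, which share the kind of bromodomain ligand and differ by the cereblon-recruiting part, were compared at the same dose and time. Relative to GNE-781, dCBP-1 raised 5 members and lowered 21 (14.3%, against 9.31% of all genes tested and 12.3% of those with a mean of 20 or more). The split was 11 and 25 with TMM and with median-ratio scaling and 14 and 25 after quantile normalization. The lower members were led by SLC16A9 (log2 fold change -1.98 ± 0.23), SLC16A6 (-1.38 ± 0.36) and SLC39A10 (-0.94 ± 0.16), and the higher by SLC30A3 (1.71 ± 0.49) and SLC66A1 (0.76 ± 0.23). Of the 26 calls 14 held in every alternative. SLC16A6 was lost without GNE-781 replicate 2 or 3, SLC66A1 with no filter (adjusted p = 0.057) and without GNE-781 replicate 1 or 3 or any dCBP-1 library, and SLC30A3 with no filter and without any GNE-781 library or dCBP-1 replicate 1 or 3.

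**Figure D4:**
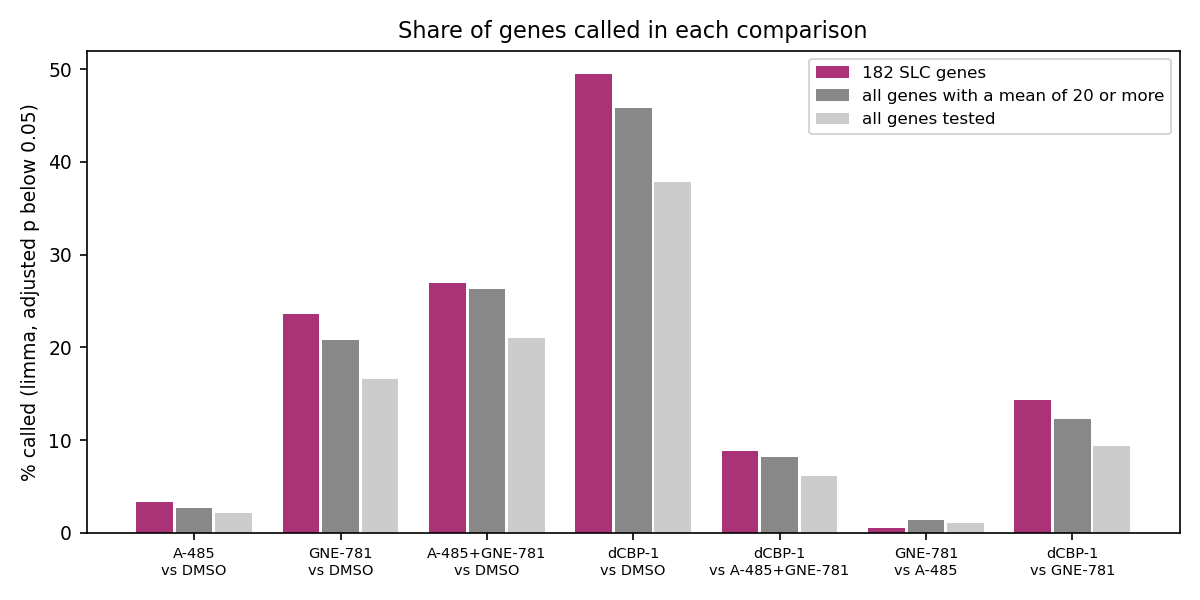
Share of genes called (y axis, %; limma, adjusted p under 0.05, 3 libraries a group) in each of 7 comparisons (x axis) for the 182 SLC genes, for all genes with a mean of 20 or more, and for all genes tested. The SLC share is 49.5% with dCBP-1, beside 45.8% and 37.8%.

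Transporters of the superfamily under other names, and the chaperones of SLC proteins, were called about as often as the SLC genes. Of 46 listed genes 41 were tested, and with dCBP-1 11 rose and 9 fell (48.8%, against 37.8% of all genes tested and 45.8% of those with a mean of 20 or more; median log2 fold change 0.09). In the fit without DMSO replicates 1 and 2, 4 rose and 7 fell, and BSG was not called (-0.44, adjusted p = 0.12). BSG and EMB, which carry the lactate transporters to the surface, fell by 0.56 and 1.04, while SLC16A1 and SLC16A3 did not pass the test. UNC93B1, the chaperone of nucleic acid sensing receptors, fell by 1.96 and the organic anion transporter SLCO4A1 by 1.32. The subunits of the mitochondrial pyruvate carrier moved apart, MPC1 with a log2 fold change of -0.50 and MPC2 with 0.52. With A-485 0 rose and 1 fell (2.44%, against 2.14% of all genes tested and 2.7% of those with a mean of 20 or more). With GNE-781 7 rose and 4 fell (26.8%, against 16.6% and 20.8%). With the combination 8 rose and 5 fell (31.7%, against 21.0% and 26.3%).

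Of 35 listed regulators and sensors of transporter genes 33 were tested, and with dCBP-1 11 rose and 9 fell (60.6%, against 37.8% of all genes tested and 45.8% of those with a mean of 20 or more; median log2 fold change 0.15). With DMSO replicates 1 and 2 left out, 7 rose and 10 fell. The list was put together with these data known, so its share supports nothing further. MYC, known to activate SLC7A5 and other amino acid transporter genes, was at 1221, 1709 and 1413 in DMSO and at 7.45, 5.65 and 1.19 with dCBP-1. Its log2 fold change was -8.17 ± 0.33, a size that depends on the pseudocount since 1 value lay under the floor. SREBF1, a regulator of lipid synthesis, fell by 1.48 and PPARGC1B, a coactivator of mitochondrial genes, by 2.10. ATF4, which induces amino acid transporters in amino acid shortage, did not pass the test (0.23, adjusted p = 0.27), while ASNS (1.11), DDIT3 (0.86) and CHAC1 (0.77), known as its targets, rose and its relative ATF5 fell by 0.79. ASNS was at 629, 649 and 1049 in DMSO and at 1418, 1445 and 2095 with dCBP-1. When those replicates were left out, the log2 fold change was 0.63 for ASNS and 0.70 for CHAC1, both called, and 0.50 for DDIT3 (adjusted p = 0.078). With the combination 7 of these genes rose and 8 fell (45.5%, against 21.0% and 26.3%).

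RefSeq promoters were matched for 148 of the 182 members. The E-box CACGTG shown above for SLC7A5 was in 7 of 36 promoters of members that fell with dCBP-1 (19.4%), in 5 of 38 of those that rose (13.2%), in 8 of 74 of those not called (10.8%) and in 7.43% of all 27305 promoters. Other members with an E-box included SLC16A9, SLC29A1 and SLC38A5, which fell, and SLC26A2 and SLC35E3, which rose. The metal response element core was in 38.9% of fallen, 36.8% of risen and 32.4% of uncalled members and in 29.3% of all promoters. The CCAAT box (CCAAT, either strand) was in 25%, 44.7% and 39.2%, and in 35.7% of all. The median GC content was 65.2%, 65.5% and 67.8%, and 58.3% over all promoters; a match describes letters in the window and nothing more.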

How the data were processed

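Normalized read counts, a signal the authors deposited as 1 table of 47459 genes by 15 libraries, were used as given. Per the labels' protocols the libraries were made with a 3′ end kit, and hg19 is the build in the submitters' processing notes; the aligner, the counter and its use of strand are not given in the sources used here. Each value is a whole read number divided by 1 factor per library: within a tolerance of 0.01, 100.0% of values gave whole reads. Symbols were matched for 96.5% of identifiers, and gene types came from an annotation of another build, used for type only.

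Values were tested as log2(value + 1) with limma 3.58.1 (trend; R 4.3.3), on 16104 genes with 5 or more in at least 3 libraries, with 5 group means over 15 libraries. P-values were adjusted by Benjamini-Hochberg over all genes of a comparison, and a gene was called below 0.05. The tests were checked on simulated data. The members, lists and tests were chosen with earlier results of these data known; the comparison of dCBP-1 with GNE-781 and the class counts without DMSO replicates 1 and 2 were added after the data were seen. Genes were named by rule: the largest changes per comparison (10 and 10 with dCBP-1, 5 and 5 elsewhere, groups not overlapping), the 4 smallest p-values per class, a fixed list, and the genes next to the limit; the other genes named were chosen after their values were seen. Each result was also computed with 3 other scalings (median-ratio, TMM, quantile), with a pseudocount of 0.25 or 5, without the filter or with it at 20, with a replicate block, from only the groups compared, without each library in turn, and from the recovered reads with edgeR 4.0.16 or DESeq2 1.42.0. Some genes the rule names are not reported here.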

Additional observations from a re-analysis of the deposited data

How the results depend on the processing

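Counts of called members moved most where few were called. With A-485, 6 became 10 with TMM or median-ratio scaling, 2 with no filter, 11 with edgeR, 18 with DESeq2, 0 by limma without DMSO replicates 1 and 2 (26 at an unadjusted p under 0.05), and 2 to 17 leaving out 1 library. Without those replicates GNE-781 gave 14 in place of 43, the combination 17 in place of 49 and dCBP-1 57 in place of 90; in these fits 1 DMSO library carries the contrast. For dCBP-1 against the combination DESeq2 gave 30 in place of 16. For GNE-781 against A-485, 1 became 8 with TMM, quantile normalization, edgeR or only the groups compared, 7 with median-ratio scaling, 15 with DESeq2, 2 with a filter at 20, 0 by limma with no filter (29 at an unadjusted p under 0.05) or with the replicate block (26), and 0 to 1 leaving out 1 library. For dCBP-1 against GNE-781, 26 became 41 with edgeR, 47 with DESeq2, 43 with only the groups compared and 17 to 23 leaving out 1 library. The cause was not tested. No scaling moved the median of all genes by more than 0.08 (log2). Same-numbered libraries did not deviate together: over 30 pairs r ranged from -0.52 to 0.40, 7 pairs exceeded 0.1, and 4 of 15 libraries matched their own number best. The replicate block gave 87 called members with dCBP-1, 44 with the combination, 41 with GNE-781 and 5 with A-485. Among the named calls it ended those of SLC30A1 with A-485 (adjusted p = 0.062), SLC66A1 for dCBP-1 against GNE-781 (0.051), SLC35E3 for GNE-781 against A-485 (0.075), SLC26A11 with dCBP-1 and SLC25A13 for dCBP-1 against the combination.

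Of 1585 alternative values of named fold changes 1475 kept direction and call, 101 lost the call, 4 gained one and 5 changed sign. The sign changes were in members that did not pass the test: without DMSO replicates 1 and 2, SLC16A1 was at -0.029, SLC25A6 at -0.053 and SLC7A11 at -0.127 (log2), and leaving out 1 library SLC16A1 ranged from -0.072 to 0.102 and SLC7A11 from -0.046 to 0.185. Depth limits members near the floor of 3 reads, such as SLC30A3.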

Other observations

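Of the 191 SLC genes with a mean under 20, 41 passed the low-value filter of the test, and with dCBP-1 7 of these rose and 2 fell. A gene that passed only through the group where it is high had to differ, so these counts support nothing further. SLC7A2, a cationic amino acid transporter, was at 45.2, 22.1 and 29.1 in DMSO and at 8.38, 4.85 and 8.3 with dCBP-1. SLC22A15, a relative of SLC22A23, was at 3.84, 9.49 and 6.07 in DMSO and at 24.2, 37.2 and 27.3 with dCBP-1. SLC45A3 had no read in the 3 DMSO libraries and was at 8.38, 9.69 and 7.11 with dCBP-1.

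Members that textbooks place on the lysosome, a list of 12 put together after the values were seen, held 6 that rose with dCBP-1 (SLC36A1, SLC38A7, SLC66A1, SLC46A3, SLC49A4 and SLC29A3), 2 that fell (SLC15A3 and SLC15A4) and 4 that were not called. With all libraries 49.5% of members and 37.8% of all genes tested were called, and since the list was put together after the fact nothing is read from its share. When DMSO replicates 1 and 2 were left out, 3 rose and 1 fell.

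Of the glucose transporters left out by name, SLC2A3 rose with dCBP-1 by a log2 fold change of 2.42 ± 0.20, and SLC2A1 was at 0.12 ± 0.16 (adjusted p = 0.58). Among RNAs named as antisense to SLC genes, SLC16A1-AS1 fell by 1.18 and SLC25A25-AS1 by 1.23 with dCBP-1, while SLC16A1 did not pass the test. Whether counting used strand is not given in the sources used here, so reads of a gene and its antisense partner may not be told apart.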
